A study of Mus musculus with 8 samples.

Results

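The genes of the mitogen-activated protein (MAP) kinase cascades were examined in a map of chromatin carrying KLF13, a zinc finger transcription factor of the KLF and Sp family, in HT22 cells, a neuronal line derived from mouse hippocampus. The genes were taken by symbol, as every row of the annotated peak list whose gene was Mapk, Map2k, Map3k or Map4k followed by a number alone. This gave 37 of 9506 peaks and 34 of the 7800 genes with a peak. A RefSeq gene table held 43 genes with such symbols, so 9 of them had no assigned peak. The members were thus chosen by the presence of a peak in the same list that gives their folds, and those folds are described here without a test.

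Chromatin was precipitated with KLF13 in 4 libraries, called chromatin streptavidin precipitation (ChSP), and 4 input libraries were not precipitated. All 8 came from HT22-BirA cells, which stably make the biotin ligase BirA, 24 h after transfection with pTO-Klf13Bio, a plasmid for a form of KLF13 that BirA biotinylates. The tagged protein was thus made from a plasmid in addition to the cells' own KLF13, and no precipitation from cells without it was analysed here, so KLF13 binding and unspecific capture by streptavidin cannot be told apart. The deposited list has a fold of ChSP over input and a p-value per peak, both computed by the authors over all libraries together. Their columns carry no descriptive header and were read as fold and p from their place in the list and their values. It has no value per library, so no fold below carries a replicate error, and read depth is unknown. A peak list does not measure expression, so the labelled neuronal identity could not be checked in it.

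MAP kinase cascades relay signals from the cell surface and from stress through kinases that phosphorylate one another in order. MAP4K enzymes and small GTPases act on MAP3K enzymes, these phosphorylate MAP2K enzymes, and MAP2K enzymes activate the MAP kinases themselves, among them the ERK, JNK and p38 kinases. In neurons these kinases take part in responses to growth factors, synaptic activity and injury. KLF and Sp factors bind GC-rich DNA, typically GC boxes and CACCC boxes, which are frequent in the promoters of widely expressed genes.

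The promoters of 6 genes are shown because they span the range of the results. Mapk8, Map2k4 and Map3k7 had the highest promoter fold of their tiers, and Map4k3 had the highest fold of the MAP4K tier among genes with a sequence in the RefSeq table. Map3k10 had no assigned peak but lay under a peak of its neighbour, and Map3k12 had no peak at either end. Each window runs 5′ to 3′ on the gene's strand from 250 bases before its start to 50 after it (RefSeq, GRCm38.p6). Capitals mark the GC box GGGCGG and the KLF-type core GGGNGTG on either strand, and matches of the 2 motifs can overlap.
Mapk8 (chr14:33447109-33447408, minus strand): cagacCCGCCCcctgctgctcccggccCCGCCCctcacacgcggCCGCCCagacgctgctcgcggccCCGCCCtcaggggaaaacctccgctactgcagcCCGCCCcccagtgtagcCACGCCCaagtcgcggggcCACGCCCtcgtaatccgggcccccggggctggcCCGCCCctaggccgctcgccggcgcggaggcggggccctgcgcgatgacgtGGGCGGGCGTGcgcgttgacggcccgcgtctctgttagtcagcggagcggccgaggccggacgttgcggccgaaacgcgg
Map2k4 (chr11:65788310-65788609, minus strand): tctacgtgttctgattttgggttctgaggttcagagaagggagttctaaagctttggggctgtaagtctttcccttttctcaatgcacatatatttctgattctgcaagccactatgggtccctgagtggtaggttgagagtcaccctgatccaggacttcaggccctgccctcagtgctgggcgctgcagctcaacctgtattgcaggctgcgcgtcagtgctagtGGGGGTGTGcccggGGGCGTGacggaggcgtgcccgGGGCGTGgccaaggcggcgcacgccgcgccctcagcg
Map3k7 (chr4:31963857-31964156, plus strand): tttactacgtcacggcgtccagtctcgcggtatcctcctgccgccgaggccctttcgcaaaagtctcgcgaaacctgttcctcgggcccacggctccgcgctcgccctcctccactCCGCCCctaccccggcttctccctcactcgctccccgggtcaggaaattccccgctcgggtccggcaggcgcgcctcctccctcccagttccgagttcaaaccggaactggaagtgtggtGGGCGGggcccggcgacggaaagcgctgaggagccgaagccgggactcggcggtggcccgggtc
Map4k3 (chr17:80727976-80728275, minus strand): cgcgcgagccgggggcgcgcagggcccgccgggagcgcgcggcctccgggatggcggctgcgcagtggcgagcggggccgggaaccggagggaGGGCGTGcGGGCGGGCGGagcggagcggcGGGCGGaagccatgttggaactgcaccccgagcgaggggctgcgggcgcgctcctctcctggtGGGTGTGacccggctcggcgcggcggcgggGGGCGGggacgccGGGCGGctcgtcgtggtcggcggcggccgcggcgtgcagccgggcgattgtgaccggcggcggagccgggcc
Map3k10 (chr7:27674532-27674831, minus strand): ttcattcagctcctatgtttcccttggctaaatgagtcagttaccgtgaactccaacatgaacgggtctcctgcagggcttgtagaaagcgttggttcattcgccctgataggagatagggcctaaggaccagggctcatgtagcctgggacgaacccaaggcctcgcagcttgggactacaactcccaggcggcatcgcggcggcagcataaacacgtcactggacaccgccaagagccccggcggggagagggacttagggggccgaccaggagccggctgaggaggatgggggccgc
Map3k12 (chr15:102516955-102517254, minus strand): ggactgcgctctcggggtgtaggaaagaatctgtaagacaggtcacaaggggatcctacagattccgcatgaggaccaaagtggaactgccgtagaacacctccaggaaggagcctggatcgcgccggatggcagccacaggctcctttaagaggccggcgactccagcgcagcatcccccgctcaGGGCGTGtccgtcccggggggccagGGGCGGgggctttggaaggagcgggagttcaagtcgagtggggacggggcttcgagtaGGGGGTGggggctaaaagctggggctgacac

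The Mapk8 window held 7 GC boxes, 6 of them written as CCGCCC, and all of its 300 bases lay under the peak. The Map2k4 window held 0 GC boxes, yet 291 of its bases lay under a peak with a fold of 44.3. It held 4 matches of GGGNGTG. The windows of Map3k7 and Map4k3 held 2 and 5 GC boxes, with 256 and 300 bases under their peaks. The Map3k10 window held no match of either motif although 169 of its bases lay under a peak, and the Map3k12 window held 1 GC box with no peak. A further RefSeq window of Map3k12, also without a peak, held 2. The letters therefore did not sort these 6 windows by the presence of a peak.

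Peaks no farther than 1 kb from an annotated transcription start (TSS) were called promoter peaks, and 31 of the 43 genes had one assigned (72.1%, exact 95% binomial interval 56.3 to 84.7), beside 30.9% of the 21900 protein-coding genes. With any assigned peak, 34 of 43 genes were counted (79.1%), beside 33.6% of all protein-coding genes. The 43 genes were taken by symbol, with or without a peak, while the 34 members were chosen by their peaks. These shares are set side by side without a test. Gene length differed between the groups: the median was 64.1 kb over the 31 cascade genes with a promoter peak and 31.6 kb over the 12 without one, against 34.6 kb over all protein-coding genes with a promoter peak and 17.1 kb over all protein-coding genes. The part of gene length in these shares was not tested.

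The tiers had promoter peaks at 10 of 13 MAPK genes, 6 of 7 MAP2K genes, 10 of 18 MAP3K genes and 5 of 5 MAP4K genes. The exact 95% binomial intervals of these shares were 46.2 to 94.96% for MAPK, 42.1 to 99.6% for MAP2K, 30.8 to 78.5% for MAP3K and 47.8 to 100% for MAP4K. All of them overlap, but intervals over 5 to 18 genes are wide, so the overlap does not decide whether the tiers differ. Most of the genes without a promoter peak, 8 of 12, were MAP3K genes. Among these 8 were Map3k10 and Map3k4, whose starts lay under peaks assigned to neighbouring genes. Counting any peak within 1 kb of either gene end gave 84.6% for MAPK, 71.4% for MAP2K, 55.6% for MAP3K and 80% for MAP4K. Among genes with a RefSeq promoter window, a peak overlapped it at 77.8%, 71.4%, 57.1% and 75% in the same order. Map4k1, counted in the 5 of 5, had a peak by neither of these measures. The median of the highest promoter fold per gene was 35.4 over the MAP4K genes, 26.1 over the MAP3K genes, 24.6 over the MAPK genes and 20.1 over the MAP2K genes. Over the 31 genes it was 24.9, against 22.9 over the 6769 protein-coding genes with a promoter peak. Folds within each tier ran from 16.5 to 60.5 for MAPK, 10.3 to 44.3 for MAP2K, 14.2 to 40.6 for MAP3K and 11.3 to 50.6 for MAP4K. The range of folds within each tier was wider than the distance between the highest and the lowest tier median. A range is set by its extreme genes, so this does not decide whether the tiers differ.

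**Figure D1:**
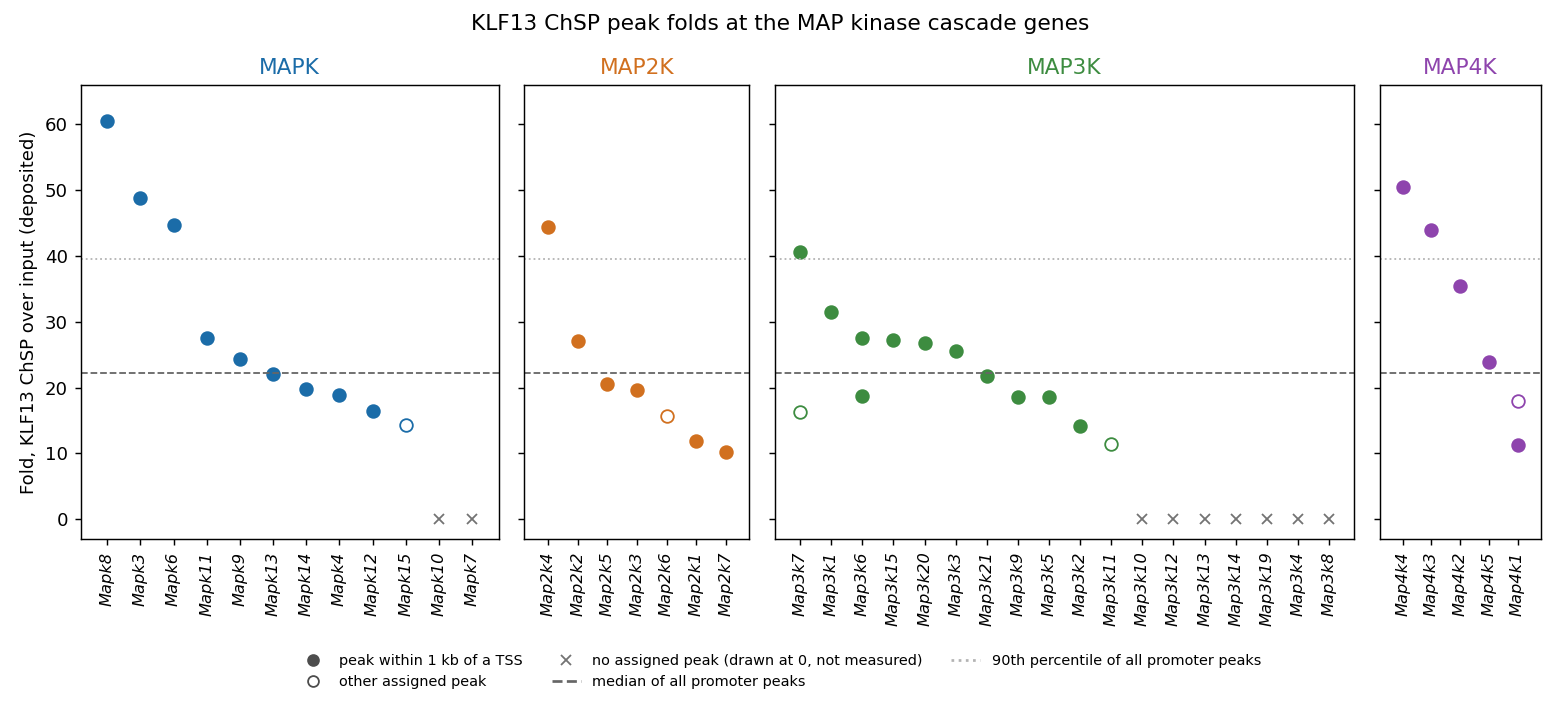
Deposited fold of KLF13 ChSP over input (y axis, linear) for 42 of the 43 cascade genes, in 4 panels by tier; filled points are peaks within 1 kb of a TSS, open points other assigned peaks, and crosses genes with no assigned peak. The dashed and dotted lines mark the median (22.2) and the 90th percentile (39.6) of all 7599 promoter peaks. By the highest promoter fold per gene, 7 of the 31 genes with a promoter peak lie above the dotted line. The same holds for 10.8% of the 6769 protein-coding genes with a promoter peak.

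Among the terminal kinases, Mapk8 (ENSMUSG00000021936), which encodes the stress kinase JNK1, had the highest fold of all members, 60.5. This peak of 1200 bp covered the TSS, at chromosome 14, 33446501 to 33447700 (the authors' p = 1.40e-25). Of all promoter peaks, 99.3% had a fold no higher. Mapk9, which encodes JNK2, had a fold of 24.3 over its TSS. Mapk10, which encodes JNK3, the form found mainly in the nervous system, had no assigned peak and none within 1 kb of either gene end. Of the kinases that activate JNK, Map2k4 (MKK4) had a fold of 44.3, the highest of the MAP2K tier, at chromosome 11, 65787501 to 65788600. Map2k7 (MKK7) had the lowest promoter fold of any member, 10.3, in a peak 300 bp wide that began 61 bp inside the gene. The JNK branch thus held both the highest and the lowest promoter fold of the cascade.

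The ERK branch carries growth factor signals. Mapk3 (ENSMUSG00000063065), which encodes ERK1, reached 48.8 at chromosome 7, 126759201 to 126760100, with the smallest p of the members, 1.38e-29. Map2k2 (MEK2) had a fold of 27.0 in a peak of 1200 bp, and its paralogue Map2k1 (MEK1) had 11.9 in a peak of 200 bp, the narrowest width in the list. The p of the Map2k1 peak, 9.86e-06, was the largest of the members and close to the largest in the list, 9.99e-06, so this peak lay just inside the list's limit. Of this pair of paralogues the gene with the higher fold also had the wider peak.

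The p38 branch, which answers stress and cytokines, had narrower differences. Mapk11 (p38 beta) had a fold of 27.5, Mapk13 (p38 delta) 22.1, Mapk14 (p38 alpha) 19.8 and Mapk12 (p38 gamma) 16.5, all in peaks over a TSS. Mapk11 and Mapk12 lie next to each other on chromosome 15, and each had a peak of its own, at 89149201 to 89149900 and at 89140201 to 89140800. Map2k3, which encodes the p38 activator MKK3, had a fold of 19.7. Map2k6, the paralogue that encodes MKK6, had no promoter peak, and its assigned peak lay 11.0 kb upstream in intergenic DNA with a fold of 15.7 (chromosome 11, 110387701 to 110388100). In the ERK5 branch, Map2k5 (MEK5) had a fold of 20.6, while Mapk7, which encodes ERK5 itself, had no assigned peak. The atypical kinases, which lack a classical MAP2K, were unlike one another: Mapk6 (ERK3) had a fold of 44.8 and Mapk4 (ERK4) 18.9 over their TSSs, and Mapk15 had 14.4 in a peak outside the 1 kb limit.

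Among the MAP3K genes, Map3k7 (ENSMUSG00000028284), which encodes TAK1, a kinase of the TGF-beta and interleukin pathways, had the highest fold, 40.6, at chromosome 4, 31963901 to 31964500. It also had a distal intergenic peak 89.3 kb from its TSS with a fold of 16.3. Map3k1 (MEKK1) had a fold of 31.5 in the widest member peak, 1900 bp. Map3k3 and Map3k2 (MEKK3 and MEKK2), which act upstream of ERK5, had folds of 25.6 and 14.2. All 3 genes of the ASK group, which are activated by cell stress, had promoter peaks: the folds were 27.5 at Map3k6, 27.3 at Map3k15 and 18.5 at Map3k5. The Map3k6 peak with 27.5 lay near the far end of the gene, and its other promoter peak had 18.8. Neither lay within 1 kb of a gene end. Map3k20, which encodes ZAK, a sensor of stalled ribosomes, had 26.7.

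The mixed lineage kinases, activators of the JNK pathway, were divided. Map3k21 and Map3k9 had promoter folds of 21.7 and 18.6. Map3k11 had a fold of 11.4 in an exon, 6.21 kb downstream of its assigned TSS. Map3k10 had no assigned peak, although a peak assigned to its neighbour Zfp607b covered its start. Map3k12 and Map3k13, which encode the leucine zipper kinases DLK and LZK that act in axon injury signalling, had no peak assigned and none within 1 kb of either end. Map3k8 (TPL2), Map3k14 (NIK, the kinase of non-canonical NF-kappaB signalling) and Map3k19 also had none by either measure. For the genes with none by either measure, no peak within 1 kb of a gene end passed the authors' limit. Without depth no upper bound on the fold can be given. For a gene such as Map3k10, the lack of an assigned peak does not mean that no peak was called there.

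Of the MAP4K genes, which are STE20-type kinases, Map4k4 (HGK) had the highest fold, 50.6, at chromosome 1, 39900401 to 39901700 (the authors' p = 7.71e-21). Map4k3 (GLK) had 44.0 and Map4k2 35.4. Map4k5 had 23.8. The peaks of Map4k2, Map4k3 and Map4k5 also overlapped the neighbouring Men1, Gm9959 and Atl1, as the Mapk14 peak overlapped Slc26a8 and those of Mapk4, Mapk6 and Map3k1 overlapped lncRNA genes, so their assignment to a single gene is uncertain. The folds of Map4k2, Map4k3, Map4k4 and Map4k5 were above the median of all promoter peaks. Map4k1, which encodes the blood cell kinase HPK1, had the lowest of the tier, 11.3, and its peak did not lie at the start of the gene.

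**Figure D2:**
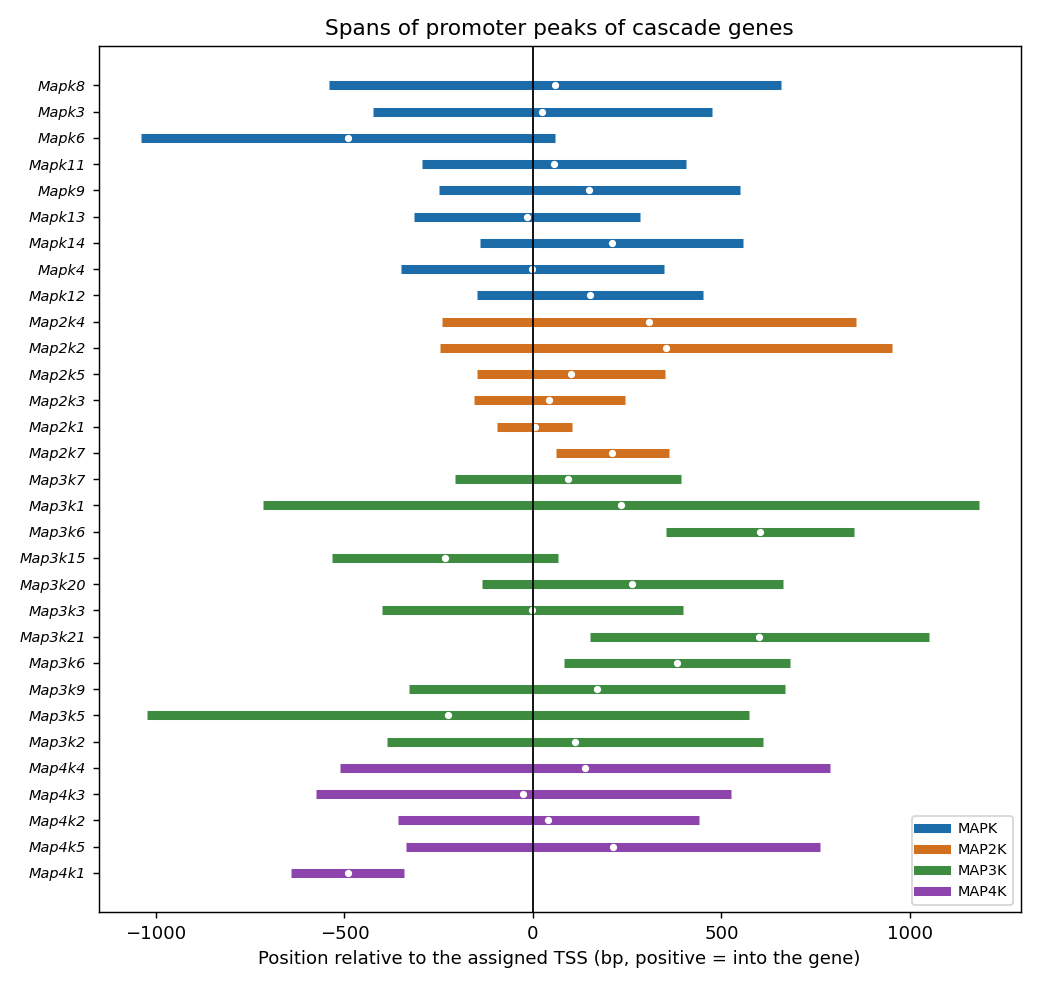
Spans of 31 of the 32 promoter peaks of the cascade genes (bars, coloured by tier) relative to the assigned TSS (vertical line at 0; x axis in bp, positive into the gene), with white dots at the peak centres and genes in order of fold within each tier. The TSS lies under 26 of the 31 bars; the Map2k7, Map3k21 and both Map3k6 peaks lie downstream of it and the Map4k1 peak upstream.

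The peaks lay where promoter peaks of the list lay in general. A TSS was overlapped by 27 of the 32 promoter peaks of the cascade genes (84.4%), against 78.7% of all 7599 promoter peaks. The peak centre was downstream of the TSS at 24 of the 32 (75%), against 73.9% of all. The median centre was 107 bp into the gene for the cascade genes and 118 bp for all promoter peaks, and the median widths were 800 and 700 bp. Wider peaks had higher folds, with a Spearman correlation of 0.51 over the 32 peaks and 0.66 over all 7599, which share libraries and caller. The centres farthest upstream were those of Mapk6 and Map4k1, both at -491.5 bp from the assigned TSS. The Mapk6 peak covered its TSS and a further RefSeq start of the gene, and the Map4k1 peak covered no assigned TSS.

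Assignment to a single gene changed which cascade genes counted. Map3k10 starts 30 bp from the zinc finger gene Zfp607b on the opposite strand, and a peak over both starts with a fold of 27.6 (chromosome 7, 27673801 to 27674700) was assigned to Zfp607b. Map3k4, which encodes the stress kinase MEKK4, starts 56 bp from the lncRNA gene 4732491K20Rik on the opposite strand, and the peak there, with a fold of 23.8 (chromosome 17, 12318101 to 12319100), was given to the lncRNA. Neither gene had a peak of its own in the list. An exonic peak within Map3k10, with a fold of 14.6, was assigned to Ttc9b. When any peak over the RefSeq promoter window was counted, 23 of 34 cascade genes with a window had one (67.6%), against 28.8% of the 17492 protein-coding genes with a window.

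Conversely, 3 peaks assigned to cascade genes and annotated as promoter lay near the far end of the gene. Map4k1's promoter peak was placed by a short transcript whose start is 19.5 kb inside the gene, and the peak ended 2079 bp before the gene's end. The second promoter peak of Map3k6, with a fold of 27.5, higher than the 18.8 of the first, was placed by a transcript starting 12.9 kb inside the gene and ended 1229 bp before its end. The Mapk15 peak, annotated as 1 to 2 kb from a TSS, ran over the gene's end. Of the member peaks within the 1 kb limit, this Map3k6 peak lay farthest from its TSS, at 352 bp, and of those beyond the limit the Mapk15 peak lay nearest, at 1888 bp. The other peak assigned to Map4k1, with a fold of 17.9, lay within the neighbouring gene Ryr1, the ryanodine receptor gene.

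**Figure D3:**
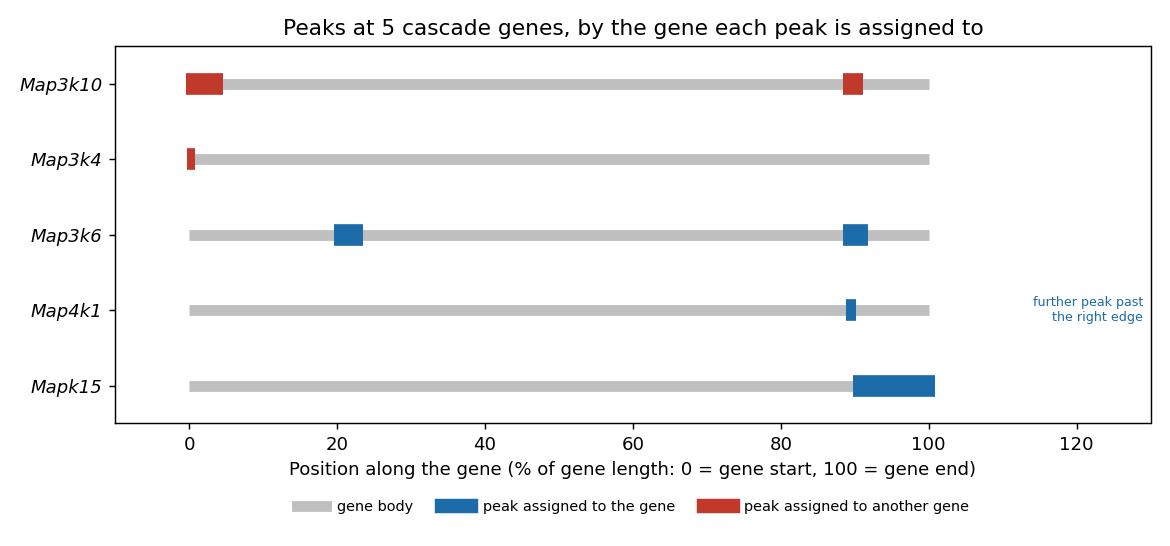
Peaks (thick bars) along 5 cascade genes, with position as a percentage of gene length from the gene start at 0 to its end at 100; blue peaks are assigned to the gene itself and red ones to another gene. Map3k10 and Map3k4 carry red peaks at their starts, while Map3k6, Map4k1 and Mapk15 carry blue peaks near their ends; the second Map4k1 peak lies past the right edge and is not drawn.

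Promoter sequence was compared as a property that did not choose the members. RefSeq windows were at hand for 34 of the 43 genes, and for a gene with several windows the highest value was taken. Genes were grouped by whether a promoter peak was assigned to them, not by whether a peak overlapped the window. Map3k10 and Map3k4 counted as without a promoter peak, although peaks assigned to neighbours overlapped their windows. Map2k7, Map3k6, Map3k21 and Map4k1 counted as with a promoter peak, although no peak overlapped their windows. The GC box GGGCGG stood on either strand in the windows of 20 of 25 cascade genes with a promoter peak (80.0%) and 5 of 9 without one (55.6%). Over all protein-coding genes it stood in 80.6% of those with a promoter peak and 35.4% of those without one. Median G + C was 68.7% in the 25 cascade genes with a promoter peak and 60.0% in the 9 without one, and over all protein-coding genes 67.7% and 53.0%. Cascade promoters with a peak were therefore close to other promoters with a peak in these measures. Map3k1 and Map4k2 held 6 GC boxes each, and Mapk7, without a peak, held 3. The core GGGNGTG, searched after the Map2k4 window had been seen, stood in 15 of the 25 (60.0%) and 6 of the 9 (66.7%), against 45.7% and 29.7% of all protein-coding genes with and without a promoter peak. GGGCGG stood in 46.2% and GGGNGTG in 31.7% of all 21263 windows of 300 bases.

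**Figure D4:**
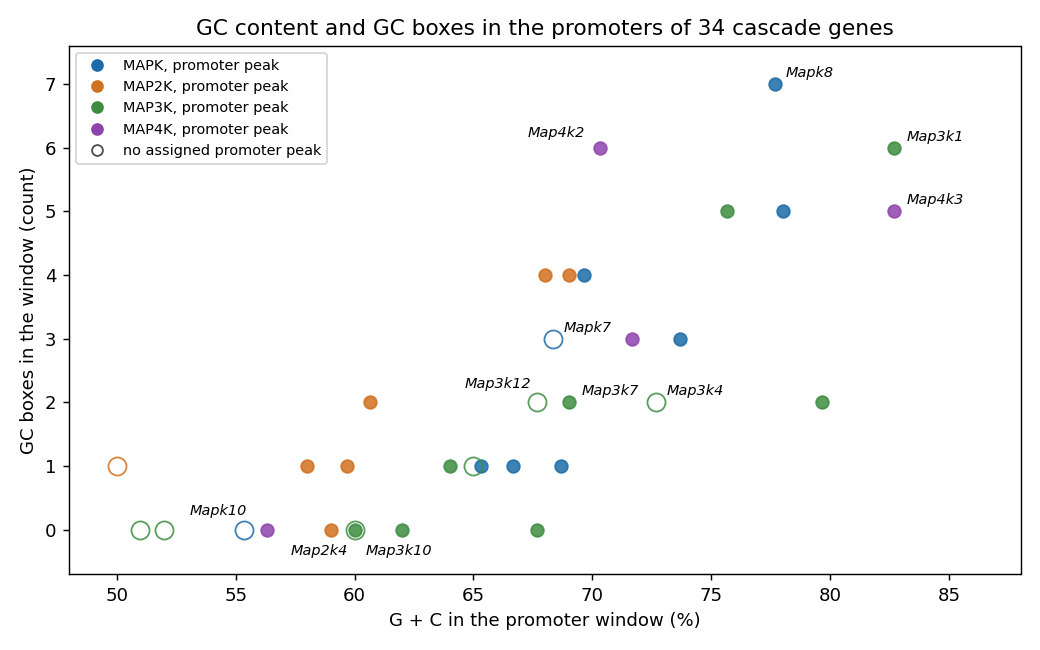
Number of GC boxes (y axis) against G + C content in percent (x axis) in the 300-base promoter windows of 34 cascade genes, taking the highest value over the windows of a gene; filled points have an assigned promoter peak, open ones do not, and colours give the tier. Mapk8 holds the most GC boxes, 7, while Map2k4 holds 0 beside a fold of 44.3 and Mapk7 holds 3 without a peak.

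Genes that work with the cascade but fall outside the symbols were counted in 8 lists of 65 genes in all. Of these, 44 had a promoter peak (67.7%, beside 30.9% of all protein-coding genes), with a median fold of 26.4. The lists were chosen with earlier results of these data known, and their shares were not tested. Kinases activated by MAP kinases had a promoter peak at 9 of 11 genes, with folds of 45.3 at Rps6ka6 and 35.5 at Mapkapk2 and none at Mapkapk3 or Mknk1. TAO and other STE20-like kinases had one at 5 of 6, led by Mink1 with 28.0 and Taok1 with 23.1, and Taok2 had none. Adaptors of TAK1 and the MEKK kinases had one at 4 of 5, with 46.4 at Tab2 and 41.8 at Tab3, partners of TAK1, and none at Traf6. Small GTPases had one at 5 of 7, with 44.8 at Rap1a and 42.7 at Rap1b. Nras had none assigned. Despite their assigned promoter peaks, Rps6ka6 and Taok1 had no peak within 1 kb of either gene end.

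RAF kinases, which are MAP3K enzymes of the ERK branch under other names, were listed with their kin. This list had promoter peaks at 4 of 6 genes, with folds of 43.2 at Braf and 30.3 at Ksr2 and none at Araf or Mos. Scaffolds had one at 5 of 8, led by Spag9 with 46.7 and Arrb2 with 20.0. Mapk8ip3 and Lamtor3 had none assigned, but Mapk8ip3 had a neighbour's peak less than 1 kb from an end. MAP kinase phosphatases, which switch the kinases off, had one at 6 of 10, with 38.2 at Dusp16 and 35.2 at Dusp7 and none at Dusp4 or Dusp6. Transcription factors phosphorylated by MAP kinases had one at 6 of 12, with 43.6 at Elk4 and 34.8 at Mef2a, and none at Elk1 or Jun. The assigned promoter peaks of Dusp16 and Mef2a did not lie within 1 kb of either gene end.

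**Figure D5:**
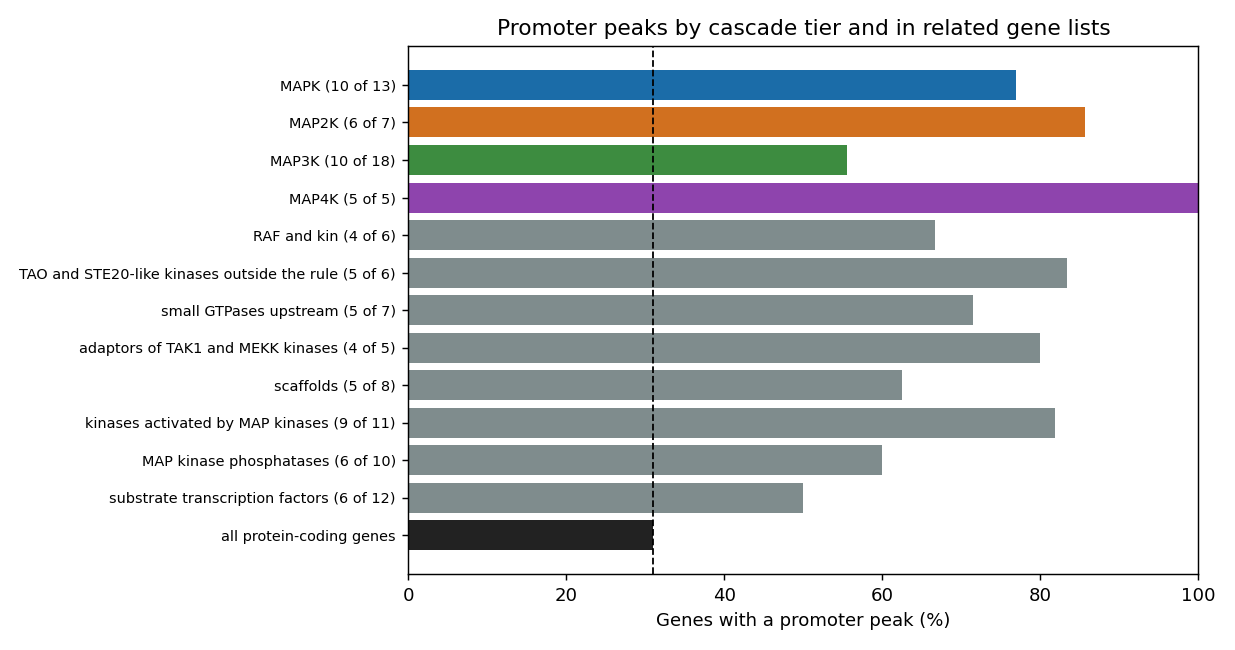
Percentage of genes with a promoter peak (x axis) in the 4 tiers of the cascade (coloured bars), in 8 related gene lists (grey bars) and over all protein-coding genes (black bar and dashed line, 30.9%), with counts beside the names. The tiers run from 55.6% for MAP3K to 100% for MAP4K, and the related lists from 50% to 83.3%. The lists were chosen with earlier results of these data known.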

How the data were processed

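The deposited list combines 4 KLF13 ChSP and 4 input libraries, whose labels do not state separate cultures. The file name gives PePr as the peak caller, without settings. The submitters' processing notes list the build GRCm38 with BWA 0.7.17-r1188, HOMER 4.9.1, ChIPseeker 1.16.1 and FastQC 0.11.3, without the role of each. The columns read as fold, p-value and adjusted p-value have no descriptive header in the deposited list, and this reading comes from their place and values. The fold, so read, is a linear ratio computed by the authors, with a scaling that is not stated. Each peak's p-value, raw and adjusted, was deposited by the authors. A deposited score, proportional to the fold, was left aside. Widths step by 100 bp, so peak edges are no finer. Per the file headers, the authors' annotation gave the peak width, the distance to a TSS and the gene.

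Members were matched by symbol and joined by gene identifier to a RefSeq gene table on GRCm38.p6 with 21900 protein-coding genes. Promoter windows came from RefSeq (17492 protein-coding genes). Members, gene lists and groupings were chosen with earlier results of these data known. Named genes were the members, all cascade genes without a peak, and from each related list the 2 highest folds and up to 2 genes without a promoter peak in list order; 2 genes that this takes are counted but not reported by name. No test was made, since members and folds come from the same contrast. Binomial intervals are exact (Clopper-Pearson) and cover counting error only. The overlap, motif and interval functions were tested on simulated data. Scripts ran in Python 3.11.15 with scipy 1.17.1, numpy 2.4.6, matplotlib 3.10.9 and pandas 2.3.3.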

Additional observations from a re-analysis of the deposited data

How the results depend on the processing

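No paired analysis was possible because no values per library are in the list, and for the same reason no library could be left out. With the 4753 peaks of smallest p, the share of cascade genes with a promoter peak was 46.5% (20 of 43, against 31 of 43 with all peaks) that of MAP3K genes 27.8% (5 of 18) and that of MAP2K genes 42.9% (3 of 7), while all protein-coding genes had 18.6%. With any assigned peak the MAP2K share was 100%. The share of all protein-coding genes was 31.6% at 3 kb, 33.6% with any assigned peak, 29.3% without the 5% widest peaks, 31.8% with peaks at either gene end, 33.2% without unnamed gene models and 28.8% by RefSeq windows, the last chosen after seeing the data. The GC box share of cascade promoters was 88.2% for GGGNGG and 50% for at least 2 GC boxes. For those with a promoter peak it was 96.0% and 56.0%, against 94.7% and 58.4% of all protein-coding genes with a promoter peak. CACCC stood in 80% of the cascade promoters with a promoter peak and 88.9% of those without one. Over all protein-coding genes with and without a promoter peak CACCC stood in 71.4% and 57.4%. Over all protein-coding genes the shares were 75.3% for GGGNGG, 61.7% for CACCC, 34.6% for GGGNGTG and 29.2% for at least 2 GC boxes. GGGNGG holds GGGCGG by construction, and the 3 kb limit and any assigned peak likewise include the 1 kb limit. At least 2 GC boxes is a narrower count of the same box, and the cuts by p and by width only leave peaks out. The direction of these changes in the shares was fixed by the definitions. The cause of the other changes was not tested. With the 4753 peaks the median fold was 27.3 over the 20 members left, against 24.9 with all peaks. Over the 3 MAP2K genes left it was 27.0, against 20.1 with all peaks. Fold and p come from the same contrast, and the median over all protein-coding genes was not taken at this cut. For the MAP2K and MAP4K tiers the intervals of the median equal the whole range, so they show nothing on stability. Read depth, which sets what could be called a peak, is unknown.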

Other observations

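Over the whole list, 5029 protein-coding genes had a RefSeq promoter window overlapped by a peak. For 423 of them (8.41%) no promoter peak was assigned to the gene, and 389 had no assigned peak at all. Among the cascade genes this held for 2 of 23, Map3k10 and Map3k4.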
